A study of Mus musculus with 3 samples.

Results

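The nuclear genes that encode oxidative phosphorylation proteins were taken from the annotation by their symbols. Protein-coding genes whose symbols begin with Nduf (complex I), Uqcr (complex III), Cox4 to Cox8 (complex IV) or Atp5 (complex V), together with Sdha, Sdhb, Sdhc and Sdhd (complex II), were kept. This gave 94 gene entries with 93 symbols, since Atp5o has a pair of entries, out of 55536 annotated genes and 22028 protein-coding genes. Of the 94, 44 were assigned to complex I, 4 to complex II, 8 to complex III, 20 to complex IV and 18 to complex V. Ndufa4 and its relative Ndufa4l2 were counted with complex IV, where the Ndufa4 protein resides. The symbol rule uses no expression value.

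The libraries hold total RNA depleted of ribosomal RNA from the cytosolic fraction of bone marrow-derived macrophages of C57BL/6J mice. These are primary macrophages grown from marrow in culture, and all had received 100 ng/ml lipid A, the Toll-like receptor 4 ligand of bacterial lipopolysaccharide, for 50 min. The 3 libraries form 1 group, are numbered as biological replicates 1, 2 and 3, and carry the same donor label. The labels do not say whether they came from separate animals or cultures, give no age or sex, and the group has no unstimulated counterpart here, so no value is a response to lipid A.

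Oxidative phosphorylation takes place in the inner mitochondrial membrane. Complexes I to IV pass electrons from NADH and succinate to oxygen. All of these but complex II also pump protons, and complex V, the ATP synthase, uses the returning protons to make ATP. Complexes I, III, IV and V combine subunits from the mitochondrial genome with a larger number made from nuclear genes, translated in the cytosol and imported, while complex II is wholly nuclear-encoded. Macrophages activated through Toll-like receptor 4 are known to shift towards glycolysis over hours.

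Gene expected counts, the estimated numbers of reads per gene, summed to 33044910, 36769402 and 36522216 in libraries 1, 2 and 3. A count of 0 allows up to 3 counts, which is 0.0908, 0.0816 and 0.0821 once divided by the total and expressed as CPM, a limit for counting error alone. Of 10 macrophage markers, 9 reached 1 TPM (a measure per length of how much of the listed RNA a gene makes up) in each library, with a median of 137 TPM. Cx3cr1 did not, at 0.17, 0.17 and 0.12 TPM. Cd4, at 26.7 TPM, was the 1 of 6 T and NK markers to do so, S100a9 and S100a8 were the 2 of 6 neutrophil markers, and none of the B, erythroid, stromal or muscle markers did.

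Nearly all of the machinery was present. Of the 94 genes, 85 were at 1 TPM or more in each library, Ndufaf6 fell short in library 2 only, 8 were under 1 TPM in all 3, 75 had 10 TPM or more in each and 7 had 100 TPM or more in each. Their median level was 36.9 TPM (41.1, 30.5 and 39.5 in libraries 1, 2 and 3), beside 9.40 TPM for the 9128 protein-coding genes at 1 TPM or more. All the genes together held 1.35%, 1.45% and 1.54% of the nuclear protein-coding TPM, or 1.45% ± 0.095 (SD, n = 3). Complexes I, IV and V held about equal parts of it (0.404% ± 0.023, 0.409% ± 0.033 and 0.422% ± 0.026), although complex I has 44 genes and the others 20 and 18. Complex III held 0.160% ± 0.011 and complex II 0.0512% ± 0.0022.

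Within complex I, the NADH dehydrogenase, the 36 structural subunits had a median of 30.5 TPM. The 7 core subunits, which carry the flavin, the iron-sulphur clusters and the parts next to them, had a median of 26.8 TPM. Ndufv1, which binds NADH and the flavin, was the lowest of the 7 with 12.7, 11.0 and 13.2 TPM in libraries 1, 2 and 3. Its highest library lay below the lowest library of each other core subunit, the nearest being Ndufs1, the largest iron-sulphur subunit, with 20.7, 15.8 and 21.2 TPM. The means of Ndufs7 and Ndufs3 (30.2 ± 5.34 and 26.8 ± 5.35 TPM, SD, n = 3) differed by less than their SDs, and Ndufs8, between 18.9 TPM in library 2 and 31 TPM in library 1, overlapped both. Ndufv2, the partner of Ndufv1, was uneven, at 51.1, 21.5 and 27.8 TPM, so its place among the core subunits depended on library 1.

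The 29 supernumerary subunits of complex I, which surround the core and stabilise it, had a median of 34.3 TPM. Ndufa3 was the highest, with 133, 55.9 and 99.6 TPM. Ndufa1 followed with 63.6, 77.8 and 114 TPM, and Ndufb8 with 68.8, 57.5 and 77.5 TPM. These 3 overlapped across libraries and their order is not separated by the spread. The lowest supernumerary subunits were Ndufb4 with 8.60, 5.86 and 9.50 TPM and Ndufa9 with 13.8, 13.5 and 17.2 TPM. The 8 assembly factors named Ndufaf, which help build complex I and then leave it, had a median of 3.36 TPM, and the highest of them, Ndufaf8 at 9.56 ± 1.57 TPM, was below all structural subunits of complex I in mean level except Ndufb4. Ndufaf3 (7.92 ± 4.04 TPM) and Ndufaf2 (3.99 ± 1.26 TPM) came next, and Ndufaf4, Ndufaf5 and Ndufaf6 were lowest, at 1.98 ± 0.21, 1.98 ± 0.36 and 1.21 ± 0.25 TPM.

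The 4 subunits of complex II, succinate dehydrogenase, lay close together. Sdha, the flavoprotein, had 51.9, 38.7 and 52.3 TPM. Sdhb, the iron-sulphur subunit, had 43.9, 36.2 and 46.5 TPM. The membrane anchors Sdhd and Sdhc had 41.8 ± 7.05 and 33.9 ± 8.22 TPM. In mean level no neighbouring pair of the 4 differed by more than its SDs, although Sdha was above Sdhb in each library. Complex II thus spanned a range of means from 33.9 to 47.6 TPM, the narrowest of the 5 complexes.

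The 8 genes of complex III, the cytochrome bc1 complex, had a median of 67.9 TPM. Small supernumerary subunits were highest: Uqcrh with 108, 90.5 and 146 TPM, Uqcrb with 152, 71.1 and 103 TPM and Uqcr11 with 83.5, 71.6 and 98.5 TPM. The Rieske iron-sulphur protein Uqcrfs1 had 22.7, 19.5 and 27.7 TPM. The large subunits Uqcrc1 and Uqcrc2, called core proteins though they carry no redox centre and counted here as supernumerary, had 39.0, 27.4 and 34.5 TPM and 20.9, 14.7 and 20.1 TPM. None of the last 3 reached, in any library, the lowest value of the first 3.

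Complex IV, cytochrome c oxidase, had 11 general nuclear subunits with a median of 114 TPM. Cox4i1, its largest nuclear subunit, was the highest of all 94 genes in mean level, with 205, 209 and 298 TPM, though Atp5b of complex V was within its spread. Cox8a had 156, 131 and 182 TPM and Cox6b1 had 150, 117 and 153 TPM. Cox4i1 was above both in each library. Cox8a was above Cox6b1 in each library too, though their means differed by less than their spread over libraries. Cox7a2l, a factor that joins complexes III and IV and of which C57BL/6J mice are known to carry a shortened allele, had 94.0, 76.4 and 125 TPM.

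In complex V the F1 subunits, which form the catalytic head and the central stalk, had a median of 99.8 TPM. The catalytic subunit Atp5b had 309, 160 and 218 TPM. Its partner in the hexamer, Atp5a1, had 97.0, 88.3 and 114 TPM. Atp5e, the smallest F1 subunit, had 85.6, 89.2 and 130 TPM, whereas the central stalk subunits Atp5c1 and Atp5d had 60.0 ± 10.9 and 51.3 ± 8.83 TPM. Among the remaining subunits Atp5l, with 136, 113 and 163 TPM, and Atp5h, with 147, 104 and 114 TPM, were highest, and Atp5g1 and Atp5o were lowest of those detected, at 36.9 ± 16.6 and 47.4 ± 8.80 TPM. The further Atp5o entry had a count of 0 in all libraries. Atp5s, which is associated with the enzyme and not part of its structure, had 1.87 ± 0.44 TPM.

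Several complex IV subunits have a general and a tissue form, and the general form was much the higher in every library. Cox4i1 exceeded Cox4i2, the form known for its hypoxia response, by 11.0 ± 0.56 on the log2(TPM + 0.1) scale (SD, n = 3), with 1, 0 and 0 counts on Cox4i2. Cox6a1 had 128, 97.2 and 136 TPM against 0.57, 0.41 and 0.75 TPM for Cox6a2, the heart and muscle form, a 209-fold ratio of means. Cox6b1 exceeded the testis form Cox6b2 by 9.55 ± 0.70 log2 units, on 1, 0 and 3 counts of Cox6b2. No muscle marker of the 6 listed was at 1 TPM, and the muscle form Cox8b, the testis forms Cox8c and Cox7b2, and Ndufa4l2 had 0 counts in all 3 libraries. Against a floor of 3 counts in each library, Cox8a was at least 713-fold higher in count than Cox8b and than Cox8c. By the same floor Cox7b was at least 394-fold higher than Cox7b2, and Ndufa4 at least 352-fold higher than Ndufa4l2.

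Cox7a1, the heart and muscle form of Cox7a2, was the exception among the tissue forms. It had 3.97, 3.52 and 4.52 TPM on 29, 39 and 44 counts, against 50.3, 38.2 and 62.3 TPM for Cox7a2. The difference was 3.60 ± 0.18 log2 units, a 12.6-fold ratio of means. Cox7a1 was the only tissue form of the 8 at 1 TPM or more in each library. AA467197, the mouse Nmes1 gene and a relative of Ndufa4 known to be induced in inflamed cells, is outside the symbol rule. It had 0.84, 0.57 and 0.65 TPM against 71.9, 55.2 and 75.9 TPM for Ndufa4, a difference of 6.43 ± 0.21 log2 units.

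The c ring of the ATP synthase is different, in that Atp5g1, Atp5g2 and Atp5g3 encode the same mature protein with different import sequences. All of them were expressed. Atp5g3 had 58.1, 60.6 and 87.1 TPM, Atp5g2 had 54.9, 46.9 and 79.3 TPM and Atp5g1 had 55.3, 23.1 and 32.3 TPM. In library 1 the 3 were equal to within 0.08 log2 units, and in the other two libraries Atp5g1 was lowest. Atp5g3 exceeded Atp5g1 by 0.96 ± 0.77 and Atp5g2 by 0.20 ± 0.15 log2 units, positive in 3 of 3 libraries, and Atp5g2 exceeded Atp5g1 by 0.77 ± 0.69, positive in 2 of 3.

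**Figure D1:**
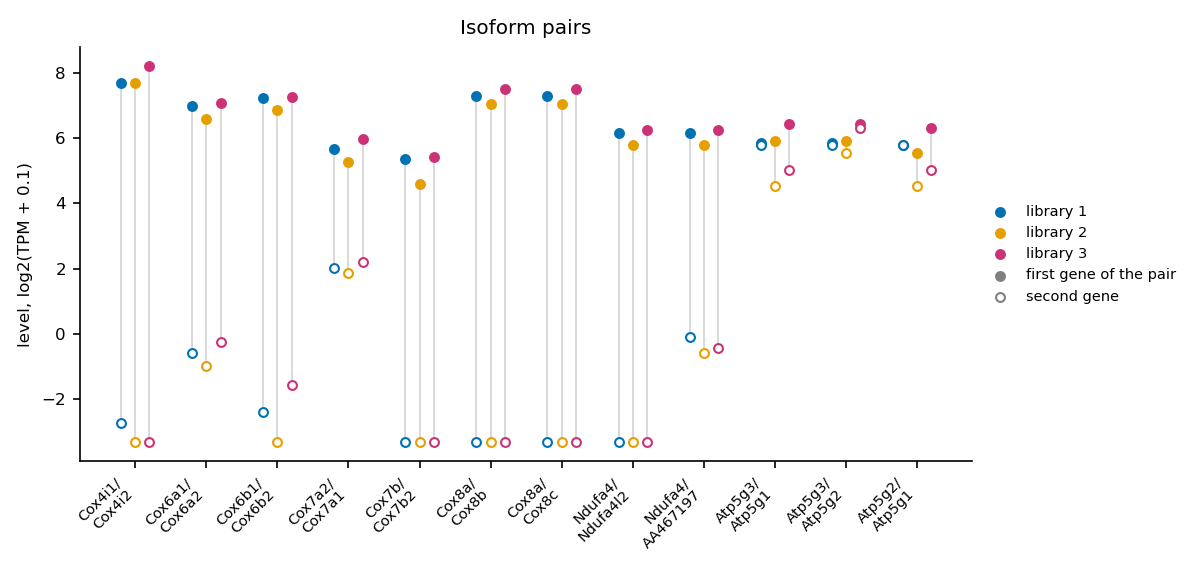
Levels of the 12 isoform pairs as log2(TPM + 0.1), with the first gene of each pair filled and the second open, 1 point per library. The second gene lies under 1 TPM for 8 of the 9 complex IV pairs, at 3.97, 3.52 and 4.52 TPM for Cox7a1, and beside its partner for the 3 c ring pairs.

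Some of these genes share sequence with processed pseudogenes, so their reads could be split between places in the genome. A search of the annotated transcripts, at 95% identity or more over at least 100 bases and 50% of the copy, found 41 pseudogene copies of 22 genes. For 3 of the 85 detected genes the copies held 5% or more of the gene's own count in some library. Ndufb4 on chromosome 16 was the most affected, since the processed pseudogene Ndufb4c on chromosome 15 was identical to it over all 390 bases of the coding sequence, with 0 mismatches. The first 120 bases are shown because the pair cannot be told apart by any read that lies inside them, and as no base differs none is in capitals.
Ndufb4: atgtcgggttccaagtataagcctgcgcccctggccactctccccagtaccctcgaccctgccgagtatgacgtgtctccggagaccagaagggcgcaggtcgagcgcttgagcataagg
Ndufb4c: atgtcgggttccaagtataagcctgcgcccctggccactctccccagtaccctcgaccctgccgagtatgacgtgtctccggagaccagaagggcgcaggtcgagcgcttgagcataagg

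The deposited tables gave Ndufb4 232, 277 and 364 counts and Ndufb4c 303, 325 and 368 counts. The pseudogene thus held 131%, 117% and 101% of the gene's count, and its TPM of 43.2, 30.2 and 38.4 was above that of Ndufb4 in every library. The TPM lay farther apart than the counts, as TPM also divide by length. With reads split in this way, the low place of Ndufb4 among complex I subunits is uncertain. The deposited posterior SD, a score of assignment uncertainty, was at most 3.43% of the Ndufb4 count. Atp5g2 shared all 645 aligned bases with the pseudogene Gm10175, which held 40.5%, 20.1% and 18.7% of its count. Rescaled to the same protein-coding total, the second deposited quantification gave Atp5g2 only 3.61, 6.60 and 25.2 TPM, and there Atp5g2 lay below Atp5g1 by 1.94 on the log2(TPM + 0.1) scale, so the order of this pair is uncertain. For Cox7c the copies, mainly Gm12338, held 6.33%, 7.57% and 6.04%.

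Most of the gene levels came from protein-coding transcripts. Across the 85 detected genes the median share of a gene's TPM in such transcripts was 99.1%, and 67 genes had 90% or more. The share was under 75% for 12 genes and under 50% for 9. Ndufa5 was lowest, with 6.89%, 11.2% and 25.6% in libraries 1, 2 and 3. Transcripts annotated as retained intron, which keep an intron and are not counted as coding, held 66.2% ± 10.8 of Atp5j, 65.0% ± 8.73 of Ndufab1, the mitochondrial acyl carrier protein, and 45.5% ± 3.12 of Ndufc1 (SD, n = 3). They held 10% or more of 7 detected genes.

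For Atp5b the share in coding transcripts was 36.5%, 55.8% and 52.3%, and its coding transcripts had 113, 89.4 and 114 TPM. Its counts were 10210, 10669 and 10998, or 8.26, 8.22 and 8.21 log2 CPM. The libraries were thus nearly equal in reads of Atp5b and far apart in its TPM. TPM divide by the length of the transcripts that reads were assigned to and are shares of all RNA listed. The part of each in this gap was not tested. Cox5b behaved alike, with 1880, 1566 and 1875 counts but 118, 42.3 and 69.8 TPM and a coding share of 47.6%, 88.4% and 75.2%. On coding transcripts only, Cox5b had 56.3, 37.4 and 52.5 TPM. Library 1 had the lowest coding share for all 9 genes under 50%, beside 201 of 383 other protein-coding genes under 50% (52.5%).

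**Figure D2:**
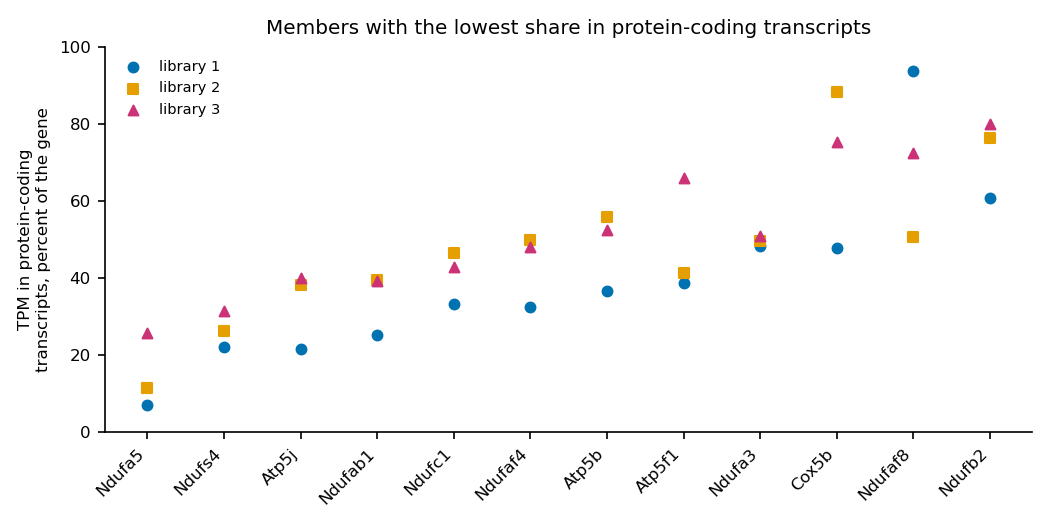
Share of each gene's TPM that lies in its protein-coding transcripts, in percent, for the 12 detected genes with a mean under 75%, 1 point per library. Library 1 is lowest for 11 of the 12, the exception being Ndufaf8.

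Whether the genes varied between the 3 libraries was then tested with edgeR, as a chi-square goodness of fit of each gene's counts to a single level with Benjamini-Hochberg adjustment over 12231 genes. The p-values ask whether a gene differed between these samples more than genes of its level did, technical differences included. A gene that is not called can still vary as much as those genes do. In bulk RNA, fewer cells of a kind and less RNA per cell cannot be told apart. Of the 94 genes 87 had enough counts to be tested, and 4 of them were called at an adjusted p of 0.05, against 203 of all 12231 genes tested (1.66%). An unadjusted p under 0.05 was found for 18 of the 87 (20.7%), beside 785 of all genes tested (6.42%). All 4 called genes, out of the 87 tested, were lowest in library 1 and highest in library 3. Among all genes, 49 of the 203 called had this pattern, which is 0.401% of the 12231 tested.

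Atp5k, the small e subunit of the ATP synthase membrane part (chr5:108433244-108434448, minus strand, mm10), varied most. Its counts were 313, 639 and 960, which is 3.23, 4.16 and 4.69 log2 CPM after TMM scaling (adjusted p = 8.7e-05, edgeR). Ndufa1, an X-linked membrane subunit of complex I (chrX:37187588-37191163, minus strand), had 523, 974 and 1255 counts, or 3.97, 4.76 and 5.08 log2 CPM (adjusted p = 0.0032). Both were lowest in library 1 and highest in library 3. Ndufa2, a complex I subunit with a thioredoxin-like fold, had 529, 860 and 1193 counts and 3.99, 4.58 and 5.01 log2 CPM (adjusted p = 0.016). Uqcr10, a small membrane subunit of complex III (chr11:4701973-4704342, minus strand), had 447, 779 and 1030 counts and 3.75, 4.44 and 4.79 log2 CPM (adjusted p = 0.017).

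These calls rested on the contrast of libraries 1 and 3. With library 1 or library 3 left out, 0 of the 87 genes were called by edgeR (6 and 14 at an unadjusted p under 0.05), and 4 were called without library 2. Calls over all genes were then 132 of 12511 without library 1 and 89 of 12419 without library 3. At an unadjusted p under 0.05 these were 657 and 625. Without library 2, 91 of 12333 were called. With 1 dispersion for all genes Atp5k was the 1 gene called, while the calls over all genes rose from 203 to 298. With no filter on low counts 3 were called, beside 221 of all 20709 genes, and Ndufa2 was not (adjusted p = 0.0501). On the second quantification 3 were called, namely Atp5k, Ndufa1 and Atp5g2, beside 200 of all 13372 genes. The adjusted p of Atp5g2 was 3.1e-11 there and 0.33 in the first quantification. Next after the called genes came Atp5e, with 4.42, 4.98 and 5.28 log2 CPM (adjusted p = 0.065), and then Ndufv2, which ran the other way with 5.87, 5.21 and 5.19 log2 CPM (adjusted p = 0.12). They were named after their values were seen.

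Library 3 was the highest of the 3 for 54 of the 87 genes tested (62.1%), beside 32.0% of all tested genes. Library 1 was the lowest for 63 (72.4%), beside 38.3%. The genes with library 1 lowest, library 2 between and library 3 highest numbered 50 (57.5%), beside 19.7%. Other protein-coding genes with transcripts under 500 nt shared part of this lean. Library 3 was highest for 52.7% of them, library 1 lowest for 57.3%, and 37.3% had that order. The 13 of the 87 under 500 nt had 76.9%, 84.6% and 69.2%. At 500 nt or more and under 1000 nt the others had 49.5%, 50.1% and 33.9% and the 47 genes 66.0%, 72.3% and 63.8%. At 1000 nt or more the others had 31.1%, 37.1% and 18.6% and the 27 genes 48.1%, 66.7% and 40.7%. Taken as the distance of log2 CPM from a gene's own average, the medians of the 87 were -0.16, 0.02 and 0.13. On the deposited TPM, which are shares of all RNA listed, library 2 was instead the lowest for 75 of the 87 (86.2%), close to the 83.5% of all tested genes, and library 3 was the highest for 55 (63.2%), beside 36.1%.

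**Figure D3:**
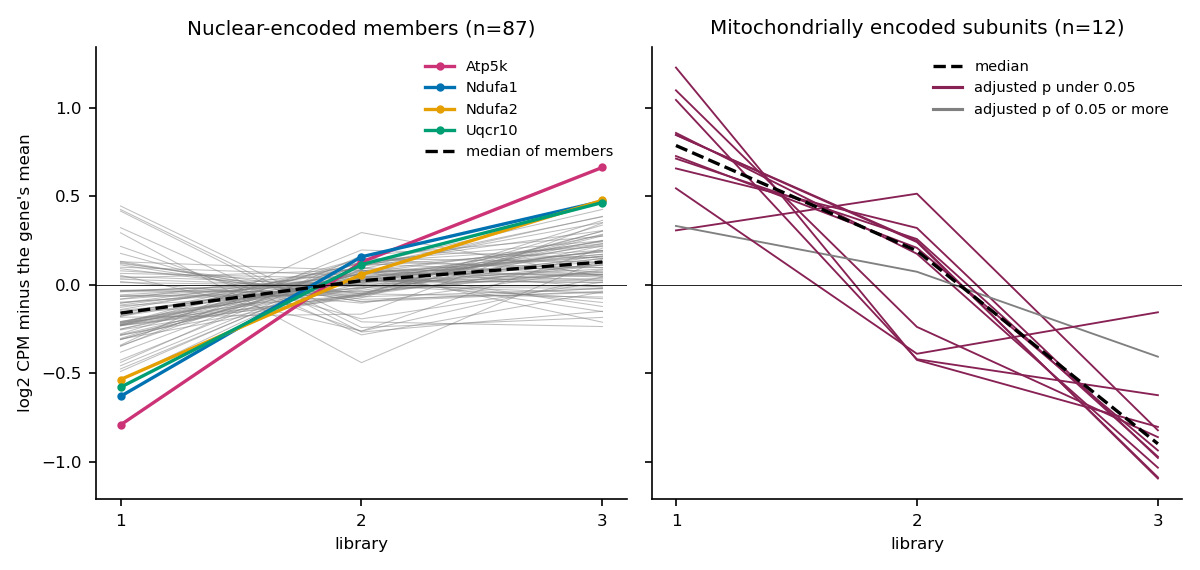
Log2 CPM minus the gene's own mean in libraries 1, 2 and 3, with 1 line per gene, for the 87 nuclear-encoded genes tested (left) and the 12 mitochondrially encoded subunits tested (right). The libraries have no order and lines only join values of a gene: the 4 called genes sit highest in library 3, and the mitochondrially encoded median is 0.79, 0.19 and -0.90.

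Most subunits encoded by the mitochondrial genome, which are partners in the same complexes, had the opposite order. Of 13, 12 were tested and 11 were called by edgeR. The untested one, mt-Co2, did not follow that order, with 0, 665 and 236 counts. Library 1 was highest for 11 of the 12, and library 3 was lowest for 11. mt-Co1, the catalytic subunit of complex IV, had 12.1, 11.5 and 10.2 log2 CPM (adjusted p = 4.9e-06). mt-Nd1 had 9.74, 9.14 and 7.80 and mt-Atp8 had 7.38, 6.05 and 5.42 log2 CPM. Their summed share was 1.08%, 0.729% and 0.324% in counts relative to nuclear protein-coding counts, while that of the nuclear genes was 0.384%, 0.428% and 0.466%. How much mitochondrial RNA a cytosolic fraction keeps and how much the cells hold cannot be told apart in these libraries.

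By the median deviation from a gene's own average, the libraries lay farther apart for short transcripts, in these genes and in others. Each gene was given the length of its most abundant protein-coding transcript. For the 13 genes under 500 nt, among them Atp5k (371 nt), Ndufa1 (419 nt) and Uqcr10 (434 nt), the median deviations were -0.25, 0.07 and 0.19 in libraries 1, 2 and 3, and 3 of the 13 were called. For the 150 other protein-coding genes of that length they were -0.14, -0.00 and 0.14, and 15 were called.

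At 500 nt or more and under 1000 nt the 47 genes, Ndufa2 (572 nt) among them, had -0.18, 0.01 and 0.15, with 1 called, and the 756 others -0.07, -0.00 and 0.09, with 30 called. At 1000 nt or more the 27 genes had -0.08, 0.01 and 0.06 and the 10126 others 0.00, -0.00 and 0.00, and the calls were 0 and 64. The range over libraries within a gene was not largest in the shortest class for these genes. From short to long classes its median was 0.44, 0.50 and 0.19 log2 units, and 0.57, 0.40 and 0.25 for the others. Across the 87 genes, which share the same libraries and are not independent, Spearman's rho between transcript length and the library 3 minus library 1 difference was -0.30, and Pearson's r was -0.24. Over 11049 other protein-coding genes they were -0.23 and -0.16. The mean fragment length implied by the deposited effective lengths was 229, 224 and 199 nt in libraries 1, 2 and 3, and its part in these differences was not tested.

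**Figure D4:**
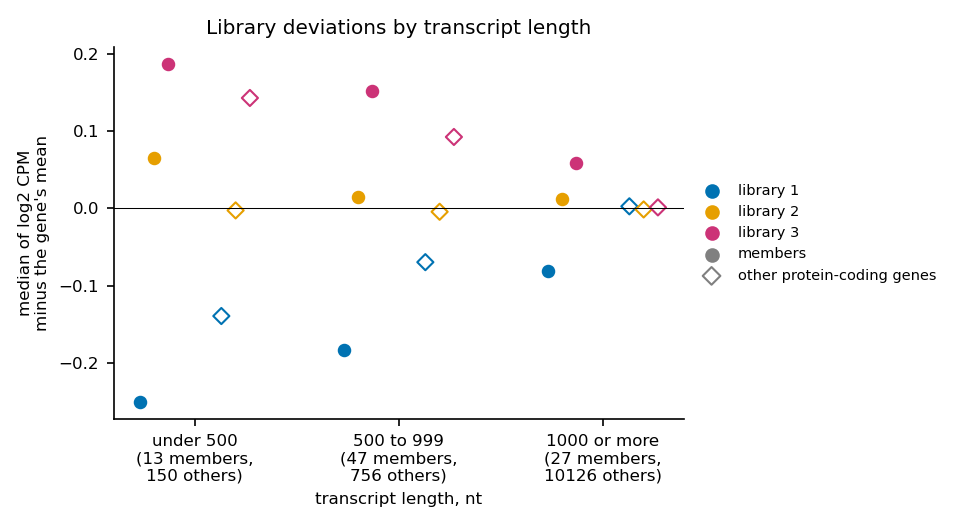
Median of log2 CPM minus the gene's mean for each library (colours) in 3 classes of transcript length, for the oxidative phosphorylation genes (filled circles) and other protein-coding genes (open diamonds). By these medians the libraries are farthest apart under 500 nt, at -0.25 to 0.19 for these genes, and closest at 1000 nt or more.

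Promoters of these genes are known for sites of NRF1, of the ETS factor GABP and of YY1. RefSeq promoter windows (GRCm38.p6, 250 bases before the start and 50 after it) were matched by symbol for 76 of the 93 symbols. The windows were searched on both strands for the NRF1 core GCGCATGCG, the ETS core CCGGAAG, the YY1 core AAGATGGCG and the TATA box TATAAA. A match describes letters in the window and not a bound site. Stretches from base -120 to base 30 are shown for the called genes Atp5k, Ndufa1 and Uqcr10, then for Atp5g2, Uqcr11 and Ndufaf8, which carry different matches. The searched letters are in capitals, and ones on the minus strand of the gene appear as their reverse complement. The NRF1 core on the plus strand overlaps its match on the minus strand in Atp5k and Atp5g2.
Atp5k (chr5:108434370-108434519, minus strand): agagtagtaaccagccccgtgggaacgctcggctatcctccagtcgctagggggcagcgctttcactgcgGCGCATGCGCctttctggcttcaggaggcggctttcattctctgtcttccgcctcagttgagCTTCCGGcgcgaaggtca
Ndufa1 (chrX:37191209-37191358, minus strand): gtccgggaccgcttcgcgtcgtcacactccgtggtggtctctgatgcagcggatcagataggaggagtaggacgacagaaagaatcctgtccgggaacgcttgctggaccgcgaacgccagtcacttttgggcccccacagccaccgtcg
Uqcr10 (chr11:4704315-4704464, minus strand): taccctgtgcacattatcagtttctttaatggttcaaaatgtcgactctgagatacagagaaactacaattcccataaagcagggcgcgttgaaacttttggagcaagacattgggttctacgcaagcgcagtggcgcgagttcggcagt
Atp5g2 (chr15:102671018-102671167, minus strand): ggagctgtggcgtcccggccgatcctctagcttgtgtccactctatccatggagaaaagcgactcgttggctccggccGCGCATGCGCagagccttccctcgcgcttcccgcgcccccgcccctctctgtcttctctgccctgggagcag
Uqcr11 (chr10:80406792-80406941, minus strand): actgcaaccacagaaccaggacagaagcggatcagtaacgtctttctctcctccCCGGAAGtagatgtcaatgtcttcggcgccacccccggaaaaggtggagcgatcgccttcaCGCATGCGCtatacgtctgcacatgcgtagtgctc
Ndufaf8 (chr11:120098814-120098963, plus strand): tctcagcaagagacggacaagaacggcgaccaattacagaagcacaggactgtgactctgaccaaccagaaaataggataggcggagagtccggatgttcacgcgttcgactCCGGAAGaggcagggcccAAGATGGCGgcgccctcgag

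Of the 3 called genes with a window, Atp5k held the NRF1 core at base -50 and an ETS core at base 13 while Ndufa1 and Uqcr10 held none of the 4 in their windows. Of the 76 symbols matched, 73 belong to detected genes (the 85 above), and of these 13.7% held the NRF1 core, beside 4.75% of other protein-coding genes at 1 TPM or more and 1.95% of all genes with a window. The YY1 core was in 11.0%, beside 4.25% and 1.64%. All 8 YY1 matches were on the gene's own strand and 7 lay after the start. The ETS core was in 24.7% of the genes, beside 23.2% and 9.93%, and the TATA box in 6.85%, beside 8.15% and 15.7%.

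Many of these genes start next to another gene. Of the 85 detected, 32 (37.6%) had a gene on the opposite strand starting within 500 bp, and for 28 (32.9%) this was protein-coding, beside 18.6% and 12.4% of 9043 other protein-coding genes at 1 TPM or more. Ndufa7 started 10 bp from the ribosomal protein gene Rps28, which had 750 ± 195 TPM. Sdhd lay 98 bp from Timm8b, a mitochondrial import chaperone at 33.6 ± 6.87 TPM, and Ndufs6 overlapped at its start with the mitochondrial ribosomal gene Mrpl36 at 14.2 ± 2.42 TPM. The neighbour was at 10 TPM or more in mean for 8 of the 32 and under 1 TPM for 12. These pairs were named after their values were seen.

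Of the genes that work beside the complexes but fall outside the symbol rule, 24 respiratory chain genes were found, 21 were at 1 TPM or more, and 0 of 24 were called by edgeR (1 at an unadjusted p under 0.05). The highest were Ucp2, an inner membrane carrier, with 231, 230 and 399 TPM, Atpif1, the inhibitor of ATP synthase reversal, with 280, 139 and 197 TPM, and the phosphate carrier Slc25a3 with 124 ± 23.8 TPM. Of 40 assembly factors named otherwise, 34 were at 1 TPM or more, and 0 of 39 tested were called (1 at an unadjusted p under 0.05). Their median was 5.30 TPM, and Cox17, a copper chaperone for complex IV, led with 61.4 ± 13.5 TPM, followed by Coa5 at 26.1 ± 5.22 and Cox16 at 25.3 ± 2.56 TPM. Of 16 regulators of mitochondrial genes, 12 were at 1 TPM or more, with Gabpa at 9.99 ± 1.98, Yy1 at 9.76 ± 3.00 and Gabpb1 at 8.0 ± 1.89 TPM the highest, and 0 of 15 were called (0 at an unadjusted p under 0.05). Over all genes tested, 1.66% were called and 6.42% had an unadjusted p under 0.05. At that share of calls, lists this short can hold 0, so the zeros set none of these lists apart.

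RNAs known to stay in the nucleus differed between the libraries. Of 8 listed, 6 were tested and 5 called, and all 6 were highest in library 2. Malat1 had 11.1, 12.4 and 10.1 log2 CPM (adjusted p = 3.9e-09, edgeR) and Neat1 had 7.71, 9.15 and 7.40 (adjusted p = 7.0e-09). Library 2 was the highest for 14 of the 87 oxidative phosphorylation genes (16.1%), beside 31.2% of all tested genes. The part of nuclear RNA in the values of the 87 genes was not tested.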

How the data were processed

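Members and lists were chosen with earlier results of these data known. The authors deposited, for each of 3 libraries, gene and transcript tables of expected counts (estimated, not whole) and TPM with a posterior SD (a score of assignment uncertainty), and a second transcript table, per the labels and deposited notes against mm10. The layouts are those of RSEM and kallisto; tools, versions and strand setting: not given in the sources used here. Identifiers were joined to GENCODE M21.

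Levels are deposited TPM, mean ± SD over libraries; differences within pairs used log2(TPM + 0.1). Expected counts were rounded and tested with edgeR 4.0.16 (R 4.3.3): filterByExpr, TMM, trended dispersion, residual deviance by chi-square, Benjamini-Hochberg over all tested genes, threshold 0.05, prior count 0.5 for log2 CPM. The step was tested on simulated data. Phage and spike-in rows were left out of library sizes; phiX174 equalled 0.365%, 0.162% and 0.0200% of gene counts. Depth was 33044910 to 36769402 counts, and intervals cover counting error only. Copies were found with blastn 2.17.0. Joins and plots used Python 3.11.15 with pandas 2.3.3 and matplotlib 3.10.9.

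Named genes are the 3 highest and 3 lowest structural subunits of each complex, all core subunits, all called genes, isoform pairs, the extreme assembly factors, genes under 1 TPM, and the 3 highest of each related list; others are said to be named after their values were seen. A gene that the rule names is not reported here. Alternatives were another size factor, no count filter, scaling on protein-coding genes, the second quantification, a common dispersion, other TPM minimums and pseudocounts, and leaving out each library.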

Additional observations from a re-analysis of the deposited data

Results flagged for a closer look

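Reads of phiX174, a bacteriophage genome used as a sequencing control, were outside every comparison. They came to expected counts of 121095, 59802 and 7317 in libraries 1, 2 and 3, above the limit of 3 counts that a count of 0 allows. They were left out of the library sizes behind every value of the oxidative phosphorylation genes.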

How the results depend on the processing

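No paired analysis was possible because there is 1 group. Outside leaving out a library, 90 of 111 alternative values for 29 results stayed close to the main value. Close meant within a set ratio of it for counts, and within the SD over libraries for other values. Some of this closeness was fixed by design. A common dispersion leaves log2 CPM unchanged, and with it the counts of genes highest or lowest in a library. Cox8a/Cox8b and Cox8a/Cox8c also share their values wherever both second genes are at 0. With a common dispersion 1 gene, not 4, was called, while the count over all genes was 298, not 203. Leaving out a library gave 0 to 4 called genes, and 89 to 132 called of all genes (203 with all libraries). It gave 23 to 64 genes highest in library 2, 23 to 64 lowest in library 2 and 20 to 23 lowest in library 3. Such counts rise by design, since each gene's highest and lowest must then fall in the libraries kept. No such value exists for the library left out. On deposited TPM, a scale added after seeing the data, 31 genes were highest in library 1, 1 in library 2 and 55 in library 3, and 12, 75 and 0 were lowest in libraries 1, 2 and 3, beside 7279, 542 and 4410 highest and 1104, 10210 and 917 lowest of all 12231 genes. The complex IV median was 50.3 TPM with tissue isoforms and 114 TPM without, also added after seeing the data. With a pseudocount of 1 the log2 differences were 7.85 (Cox4i1/Cox4i2), 6.26 (Cox6a1/Cox6a2), 6.99 (Cox6b1/Cox6b2), 3.33 (Cox7a2/Cox7a1), 5.17 (Cox7b/Cox7b2), 7.28 (Cox8a/Cox8b and Cox8a/Cox8c), 6.09 (Ndufa4/Ndufa4l2) and 5.34 (Ndufa4/AA467197), as a larger constant shrinks differences of genes near 0. On the second quantification they were 6.58 (Cox6a1/Cox6a2), 9.90 (Cox8a/Cox8b), 2.95 (Atp5g3/Atp5g2) and -1.94 (Atp5g2/Atp5g1), the last reversed, and the cause was not tested. The median coding share was 99.1%, 99.2% on the second quantification and 99.2% to 99.4% with a library left out. The pair Uqcrh/Uqcrhl was not run. At these depths genes with 0 to 3 counts support only a limit.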
